A study of Mus musculus with 6 samples.

Results

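The genes described here are 10 core genes of the Notch pathway, found by their symbols in a table of read counts for 21526 gene symbols: the receptors Notch1, Notch2, Notch3 and Notch4, the ligands Jag1, Jag2, Dll1 and Dll4, and the targets Hes1 and Hey1. All 10 were in the table and all 10 passed the filter on low counts, as did 14600 genes in all. RNA came from epithelial cells released with EDTA from the gastric corpus of mice, without culture. The 3 Normal libraries were from wild-type (WT) mice, and the 3 Yap-activated libraries, labelled as gastric cancer, were from mice of genotype CluCreERT2;R26rtTA;HA-Yap+. Those alleles are a tamoxifen-dependent Cre (CreERT2) at the Clu gene, so that Cre acts in cells that express Clu, the doxycycline-dependent activator rtTA at Rosa26, and an HA-tagged Yap transgene. Mice of both groups received tamoxifen at 2 mg on 5 days in a row and then doxycycline food over the 14 days before collection. The WT controls lack all 3 alleles, so that what CreERT2 or rtTA may do by themselves and what Yap does cannot be told apart. The labels give neither the age of the mice nor whether each library came from a separate mouse, so p-values here reflect variation among libraries that could be partly technical.

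Notch signalling passes between cells in contact. A ligand of the Jagged or Delta-like family on one cell binds a receptor on its neighbour, a protease of the ADAM family and then the gamma-secretase complex cut the receptor, and the freed intracellular domain enters the nucleus. There it binds the DNA-binding protein Rbpj together with a Mastermind coactivator and switches on repressors of the Hes and Hey families. In the stomach the pathway is known for keeping progenitor cells proliferating and undifferentiated, and in vessels for the choice between arterial and venous fate and for the maturation of mural cells.

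Depth ran from 25580734 to 48440033 counts per library, and expression is given as CPM, read counts scaled to a common library total by TMM. Mitochondrial genes took 27.6%, 16.1% and 15.1% of counts in Normal and 13.8%, 7.49% and 9.30% in Yap-activated replicates 1, 2 and 3, with Normal replicate 1 above the rest. The 10 most abundant genes took 30.5% to 38.5% in Normal and 9.61% to 15.3% in Yap-activated libraries. The part of these differences in the results was not tested. Yap1, the check of the transgene, had 100.3, 104.5 and 106.0 CPM in the Normal libraries and 3084, 1468 and 1651 CPM in the Yap-activated libraries. Markers of the labelled tissue were present in the Normal libraries, where 4 parietal cell markers summed to between 21260 and 28940 CPM, against 24.6 to 33.5 CPM in the Yap-activated libraries. The fifth marker of that list, Gif, was not analysed here. The 4 pan-epithelial markers (Epcam, Cdh1, Krt8 and Krt18) summed to 3450 to 4235 CPM in Normal and 7345 to 8215 CPM in Yap-activated libraries, and 3 of the 4 rose, as did 29.8% of all genes tested. The RNA is of mixed cells, so for every gene below fewer cells of a type and less RNA per cell cannot be told apart. What part the change in cell types has in the values below was not tested.

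Promoter stretches of 3 genes are shown because Yap acts through the TEAD family of DNA-binding proteins and Notch through Rbpj, so that the letters these factors are known to read can be seen beside genes that moved in different ways. They are RefSeq sequences on GRCm38.p6, 5′ to 3′ on the gene's own strand, from the 250 bases before the RefSeq start. Bases that GENCODE places in an exon of the gene are left off. Capitals mark the TEAD core GGAATG or its reverse complement CATTCC. Notch4 (chr17:34564045-34564267, plus strand) and Dll1 (chr17:15376933-15377182, minus strand, the more upstream of 2 starts) rose in the Yap-activated libraries, and Notch1 (chr2:26503825-26504072, minus strand) did not rise.
Notch4: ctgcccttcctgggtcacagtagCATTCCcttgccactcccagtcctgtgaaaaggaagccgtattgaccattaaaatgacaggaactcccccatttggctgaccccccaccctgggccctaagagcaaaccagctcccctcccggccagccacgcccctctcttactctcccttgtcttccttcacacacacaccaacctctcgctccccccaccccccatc
Notch1: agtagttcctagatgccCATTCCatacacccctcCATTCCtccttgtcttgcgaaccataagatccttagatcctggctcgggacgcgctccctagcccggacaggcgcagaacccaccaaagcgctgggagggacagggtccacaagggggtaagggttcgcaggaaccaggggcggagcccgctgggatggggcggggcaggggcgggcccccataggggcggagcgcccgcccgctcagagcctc
Dll1: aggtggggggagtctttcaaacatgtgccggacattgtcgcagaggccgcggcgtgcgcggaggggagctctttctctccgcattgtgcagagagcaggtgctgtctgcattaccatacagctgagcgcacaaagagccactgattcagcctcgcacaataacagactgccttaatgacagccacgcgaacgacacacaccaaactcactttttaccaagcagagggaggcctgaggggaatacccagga
In the full window of 250 bases Notch4 held the TEAD core on 1 occasion, 227 bases before the start, and Notch1 on 2 occasions, at 233 and 216 bases before it. The table of promoters matched 8 of the 10 genes, with 9 windows, and no other window of these held the TEAD core. Among all genes with a window, 14.4% held it on either strand. The Rbpj core TGGGAA, or its reverse complement TTCCCA, was in none of the 9 windows and in those of 24.1% of all genes. The TEAD letters were thus present at a receptor gene that rose and at one that did not, and absent from this window at the gene that rose most. A match is a description of letters only, and binding was not measured here. Hes1 and Hey1 had no entry.

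Across the 10 genes, 7 receptor and ligand genes passed the test, while the ligand Jag1 and the 2 targets did not. By edgeR's quasi-likelihood test with Benjamini-Hochberg adjustment over the 14600 genes and a threshold of 0.05, 3 of 4 receptors and 3 of 4 ligands were higher in the Yap-activated libraries, 1 receptor was lower, and Jag1, Hes1 and Hey1 did not pass. Of all genes tested 59.5% were called, 29.8% higher and 29.7% lower. So 7 called of 10 lies near the background, and is not a result about these genes or their roles. The groups did not overlap at the same 7 genes, 6 above and 1 below, where 67.6% of all genes tested did not overlap, 33.2% above and 34.4% below. The median log2 fold change of the 10 genes was 0.72, against 0.01 over all genes tested. The scaling matters for the direction of small changes. When TMM was replaced by library totals alone, the median over all genes tested moved to 0.51 and the share of calls that were higher went from 50% to 76.6%, and then 8 of the 10 genes were higher and 0 lower.

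**Figure D1:**
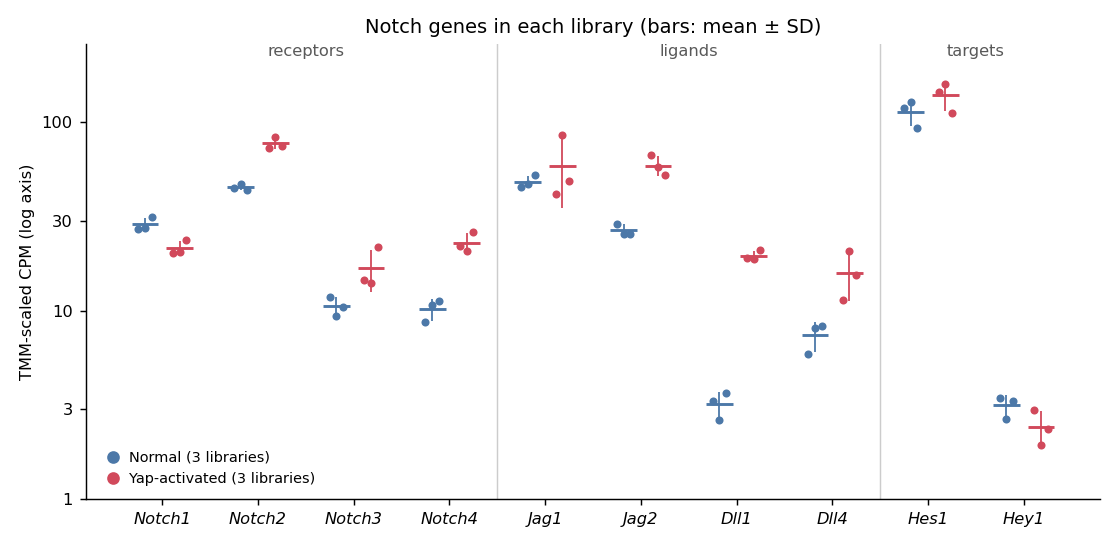
TMM-scaled CPM on a log axis for each of the 10 genes in the 3 Normal and 3 Yap-activated libraries, with the mean ± SD of each group. The groups do not overlap for Notch1 to Notch4, Jag2, Dll1 and Dll4, with Notch1 lower and the others higher under TMM scaling (Notch1 is at 0.08 log2 with library totals alone), and they overlap for Jag1, Hes1 and Hey1.

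Notch1 and Notch2 are the receptors known for keeping progenitors of the intestinal epithelium undifferentiated. Among the receptors, Notch2 had the highest level and Notch4 the largest rise. Notch2 had 44.6, 47.1 and 43.8 CPM in Normal and 73.3, 83.5 and 74.9 CPM in Yap-activated replicates 1, 2 and 3. Every Yap-activated library thus lay above every Normal one, which gave a log2 fold change of 0.78 (SE 0.09, adjusted p = 2.631e-04, edgeR). Notch4, a receptor known mainly from endothelial cells, had 8.65, 10.7 and 11.2 CPM in Normal and 21.9, 20.7 and 26.2 CPM in Yap-activated libraries. Its groups were apart in all 6 libraries, with a log2 fold change of 1.17 (SE 0.16, adjusted p = 4.215e-04, edgeR).

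Notch3, known as the receptor of vascular smooth muscle cells and pericytes, had 11.8, 9.34 and 10.4 CPM in Normal and 14.5, 14.1 and 21.7 CPM in Yap-activated libraries. Yap-activated replicate 3 stood above the other Yap-activated libraries, which gave a log2 fold change of 0.67 (SE 0.20, adjusted p = 0.0206, edgeR). Leaving out Normal replicate 2 (adjusted p = 0.080) or Normal replicate 3 (adjusted p = 0.0645) ended that call. Notch1 went the other way, with 27.1, 27.5 and 31.5 CPM in Normal and 20.3, 20.5 and 23.8 CPM in Yap-activated libraries. All 3 Yap-activated values lay below the Normal ones, with a log2 fold change of -0.41 (SE 0.12, adjusted p = 0.0178, edgeR). Leaving out Normal replicate 3 (adjusted p = 0.0733) or Yap-activated replicate 1 (adjusted p = 0.0524) ended the call, and with library totals alone the log2 fold change was 0.08 (adjusted p = 0.612). At Notch1, Notch3, Dll1 and Dll4 an exon overlaps a transcript on the opposite strand in GENCODE, over 20.5% of exon bases at Dll1 and 7.5% or less per transcript at the others, and Notch2 shares 5.0% with a transcript on its own strand. Whether strand was used in counting is not known here, so reads of such a transcript could sit in these counts.

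The ligands held the largest change of the 10 genes. Dll1, a Delta-like ligand, had 3.29, 2.61 and 3.64 CPM in Normal and 19.0, 18.7 and 20.9 CPM in Yap-activated libraries. The Yap-activated libraries were close to each other and far above Normal, with a log2 fold change of 2.62 (SE 0.17, adjusted p = 1.243e-05, edgeR), a 6.15-fold rise. Only 5.2% of genes tested had a larger log2 fold change. Jag2, a Jagged ligand, had 29.0, 25.5 and 25.6 CPM in Normal and 66.5, 57.9 and 52.2 CPM in Yap-activated libraries. Its groups did not overlap, with a log2 fold change of 1.14 (SE 0.12, adjusted p = 1.285e-04, edgeR).

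Dll4, the Delta-like ligand known from sprouting vessels, had 5.85, 8.03 and 8.25 CPM in Normal and 11.4, 20.8 and 15.5 CPM in Yap-activated libraries. The lowest Yap-activated value still lay above the highest Normal one, with a log2 fold change of 1.11 (SE 0.25, adjusted p = 0.00546, edgeR). Jag1, the most abundant ligand gene in Normal, had 45.3, 47.2 and 52.5 CPM in Normal and 41.5, 85.9 and 48.7 CPM in Yap-activated libraries. Yap-activated replicate 2 alone stood above the Normal range. The log2 fold change of Jag1 was 0.28 with a 95% interval from -0.33 to 0.89 (adjusted p = 0.382, edgeR), and without that library it was -0.10. The interval spans falls and rises, so Jag1 cannot be called alike in the groups.

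Neither target passed the test under TMM scaling, nor did the ligand Jag1. Hes1, a repressor that Notch switches on and that other pathways also control, had 119.5, 127.2 and 92.9 CPM in Normal and 144.3, 159.4 and 112.3 CPM in Yap-activated libraries. The groups overlapped, because Yap-activated replicate 3 lay below Normal replicates 1 and 2, and the log2 fold change was 0.29 with a 95% interval from -0.10 to 0.68 (adjusted p = 0.166, edgeR). With library totals alone it was 0.78 and passed (adjusted p = 0.0036). Hey1, a related repressor best known in the heart and vessels, had 3.44, 2.66 and 3.32 CPM in Normal and 2.95, 1.93 and 2.34 CPM in Yap-activated libraries. Its log2 fold change was -0.38 with a 95% interval from -0.995 to 0.23 (adjusted p = 0.241, edgeR), and 0.11 with library totals alone.

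Levels can be compared between genes only per length, so CPM was divided by the kilobases of exon that GENCODE gives each gene. On that scale Hes1 was far the highest in Normal, at 55.6 ± 8.83 CPM per kb (SD, n = 3), followed by Jag1 at 8.29 ± 0.64, Notch2 at 4.19 ± 0.16 and Jag2 at 3.83 ± 0.28. Notch1 (2.02 ± 0.17), Dll4 (1.92 ± 0.34), Notch3 (1.30 ± 0.15) and Notch4 (1.27 ± 0.17) came next, and Hey1 (0.961 ± 0.128) and Dll1 (0.754 ± 0.123) were lowest. Within that order the ranges over libraries overlapped between Notch2 and Jag2, Notch1 and Dll4, Notch3 and Notch4, and Hey1 and Dll1.

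In Yap-activated libraries the level per kb of Dll1 was 4.63 ± 0.29 (SD, n = 3), the fifth of the 10 in place of the last, and that of Notch1 was 1.51 ± 0.14, above Hey1 alone. Hes1 (68.1 ± 11.8) remained the highest, followed by Jag1 (10.1 ± 4.08), Jag2 (8.45 ± 1.04) and Notch2 (7.17 ± 0.51), where the ranges of Jag1 and Jag2 and of Jag2 and Notch2 overlapped. Dll4 (4.13 ± 1.22) and Notch4 (2.85 ± 0.35) lay next below Dll1, and each overlapped its neighbours, as did Notch4 and Notch3 (2.07 ± 0.53). The order rests on the length used. With the longest transcript in place of all exon bases, Jag2 came before Notch2 in Normal and before Jag1 in Yap-activated libraries, and Notch4 came before Notch3 in Normal and Notch1 before Notch3 in Yap-activated libraries.

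**Figure D2:**
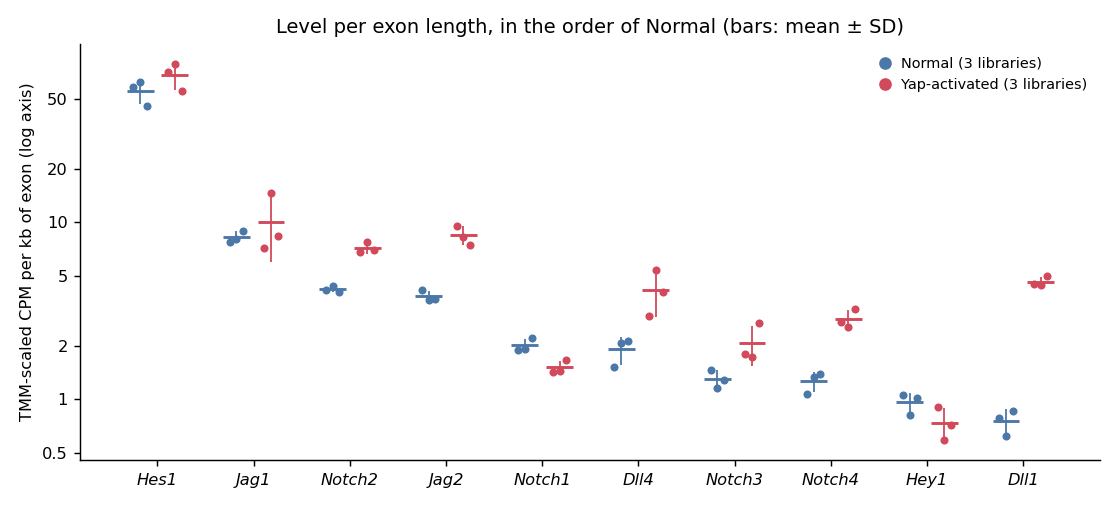
TMM-scaled CPM per kb of exon on a log axis for the 10 genes, ordered by their Normal mean, with each library as a point and mean ± SD. Hes1 is highest in both groups, and Dll1 goes from 0.754 to 4.63 CPM per kb.

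Shares within a library do not depend on how libraries are scaled, so they show how the make-up of receptors and ligands differed. Notch1 made up 22.2%, 22.0% and 24.7% of the summed level per kb of the 4 receptors in Normal and 11.2%, 10.7% and 11.5% in Yap-activated libraries. The groups were far apart, and Notch4 moved the other way, from 12.5%, 15.2% and 15.6% to 21.3%, 19.1% and 22.3%. Notch2 held the largest share in every library, 47.8 ± 2.21% in Normal and 52.8 ± 4.83% with Yap activated (SD, n = 3), with overlap between the groups. The share of Notch3 was 14.9 ± 1.99% against 15.1 ± 2.92%.

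Among the ligands the share of Jag1 was 54.6%, 56.0% and 57.4% in Normal and 29.5%, 44.8% and 33.6% in Yap-activated libraries. Dll1 went from 5.48%, 4.28% and 5.49% to 18.6%, 13.5% and 19.97%, while the shares of Jag2 and Dll4 overlapped between the groups. Thus Jag1 and Notch1 gave a smaller part, and Dll1 and Notch4 a larger part, in all 3 Yap-activated libraries than in any Normal one. The 4 shares of a family add up to the whole, so they are not separate results. The smaller share of Jag1 does not by itself show a fall of Jag1, whose mean was 48.3 CPM in Normal and 58.7 CPM in Yap-activated libraries. That higher mean rests on Yap-activated replicate 2 (85.9 CPM), and without this library the log2 fold change of Jag1 was -0.10. Neither a fall nor a rise of Jag1 is thus shown. For these 4 of the 8 shares tested the 2-sided exact permutation p was 0.1, the smallest that 3 against 3 can give, and 0.2 after Benjamini-Hochberg adjustment over the 8. For the other 4 it was 0.3 or more.

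**Figure D3:**
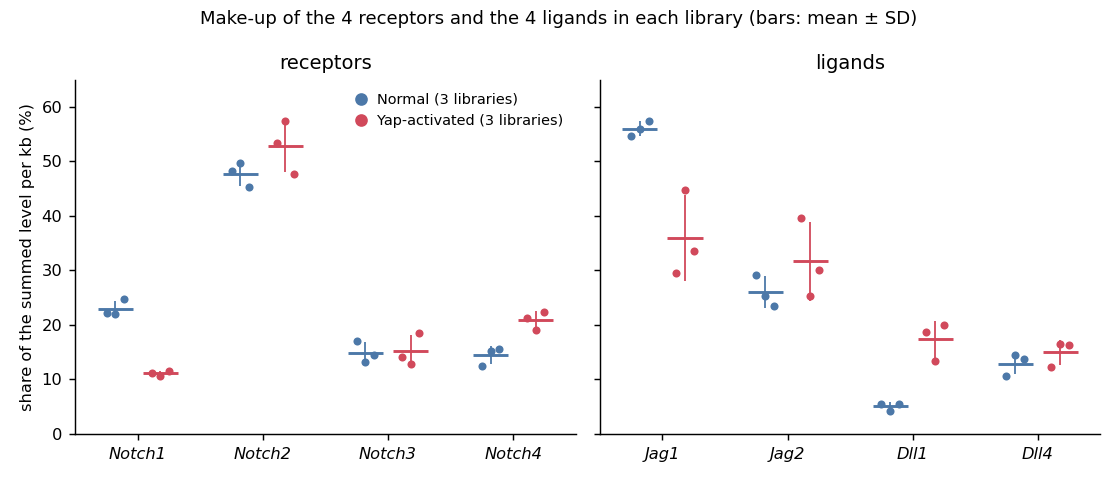
Share of each receptor, in percent, in the summed level per kb of the 4 receptors (left) and of each ligand in that of the 4 ligands (right), in each library with mean ± SD. Notch1 and Jag1 are lower and Notch4 and Dll1 higher in all 3 Yap-activated libraries than in any Normal library.

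Notch4, Dll4, Hey1 and Notch3 are known from vessels, so their values were set beside markers of those cells. Of 11 endothelial markers 8 fell and 0 rose, against 29.7% of all genes that fell. Kdr, a receptor for vascular growth factor, was at -2.45 and Pecam1 at -1.51 on the log2 scale. Esam (-0.74), Vwf (-0.09) and Egfl7 (-0.02) did not pass. The summed level of the 11 was 236.7 to 257.5 CPM in Normal and 61.4 to 108.9 CPM in Yap-activated libraries, and none of the 11 was at 0. Of 9 mural markers, of pericytes and smooth muscle, 3 fell (Rgs5, Acta2 and Myh11) and 0 rose, against 29.7% and 29.8% of all genes. The number of mural falls thus lies near the background, and the median log2 fold change of the 9 was -0.11. Their sums were 233.8 to 339.2 CPM in Normal and 129.6 to 248.7 CPM in Yap-activated libraries, and these overlapped.

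Relative to the endothelial sum, the log2 level of Notch4 was -4.61 ± 0.24 in Normal and -1.90 ± 0.29 with Yap activated (SD, n = 3), a difference of 2.71. For Dll4 the log2 ratio was -5.08 ± 0.32 and -2.46 ± 0.78, a difference of 2.62. The ratio of Hey1 to the endothelial sum was higher by 1.16 log2 in Yap-activated libraries, while Hey1 itself did not pass the test. Notch3 was at -4.79 ± 0.20 and -3.37 ± 0.16 log2 relative to the mural sum, a difference of 1.415. That sum is weighted to Rgs5, Acta2 and Myh11, the 3 markers that fell, with means of 72.3, 66.9 and 96.9 CPM in Normal. With the mean log2 of the mural markers in place of the sum, the difference was 0.99. In all 4 ratios the 3 Yap-activated libraries lay above the 3 Normal ones (2-sided exact permutation p = 0.1, the smallest possible, also after adjustment over the 4). For Notch4 and Dll4 this outcome was fixed beforehand, since the gene rose and the endothelial sum fell, each without overlap. For Hey1, at a log2 fold change of -0.38, the higher ratio follows from the lower endothelial sum. Dll4 was highest in Yap-activated replicate 2, the library with the lowest endothelial sum (61.4 CPM). Among the Yap-activated libraries Notch4 and Hey1 were instead lowest there, at 20.7 and 1.93 CPM. Notch4 was highest in Yap-activated replicate 3 (26.2 CPM), where the endothelial sum was 108.9 CPM. Notch3 too was lowest in replicate 2 and highest in replicate 3 (14.1 and 21.7 CPM), as was the mural sum (129.6 and 248.7 CPM). These orders were not tested. Leukocyte markers, 7 in the list, summed to 37.1 to 42.8 CPM in Normal and to 43.4 to 319.6 CPM in Yap-activated libraries. S100a8 alone had 218.4, 4.01 and 55.7 CPM in Yap-activated replicates 1, 2 and 3. Of 6 tested 3 rose (29.8% of all genes did), while Cd3e (-0.002 log2), Adgre1 (0.07) and Itgam (0.78) did not pass. The part of leukocytes in these levels was not tested.

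**Figure D4:**
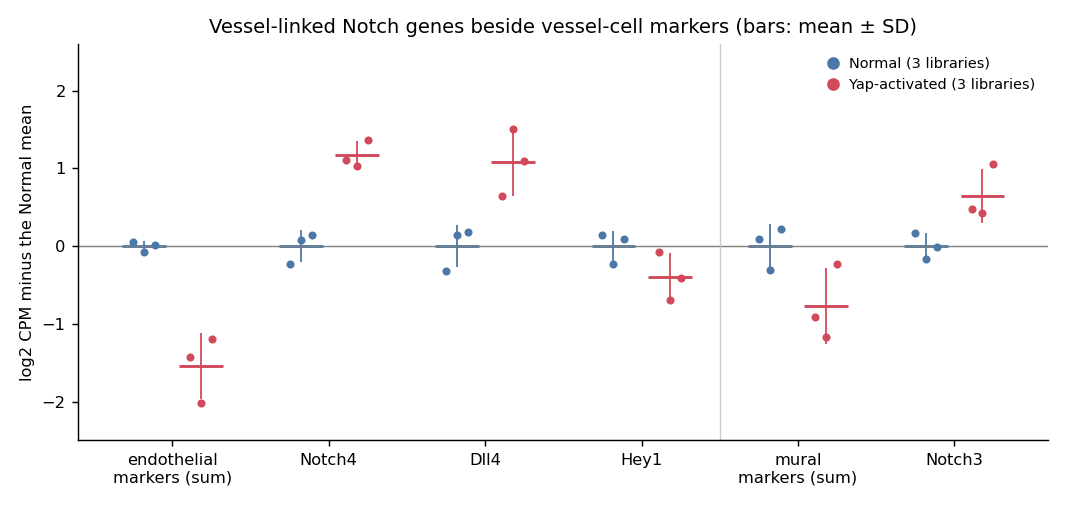
Log2 CPM minus the Normal mean for the summed endothelial markers, Notch4, Dll4 and Hey1 (left) and the summed mural markers and Notch3 (right), in each library with mean ± SD. Notch4 and Dll4 lie above 0 in all 3 Yap-activated libraries, where the endothelial sum lies below 0.

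The rest of the pathway was described from 45 other genes sorted by role, of which 42 were tested. Of these 6 rose, 13 fell and 23 did not pass, where 29.8% of all genes rose and 29.7% fell, so that the number of falls lies near the background. The 42 genes had a median log2 fold change of -0.14 against 0.01 over all genes, and with library totals alone 19 were higher and 6 lower. Without Normal replicate 3 only 3 rose. Among further ligands, Dlk2, a Delta-like protein that is not a classical Notch ligand, rose from 0.450 ± 0.076 to 5.43 ± 3.03 CPM (SD, n = 3), a log2 fold change of 3.58 (SE 0.48, adjusted p = 4.433e-04, edgeR). Its Yap-activated values were 8.64, 5.03 and 2.62 CPM, all above Normal. Dll3 was at -0.07 and did not pass.

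Of 8 further Hes and Hey genes and targets 6 were tested, and 1 was higher, 1 lower and 4 did not pass (29.8% of all genes were higher and 29.7% lower). Heyl, a Hey family gene known in mural cells, had a log2 fold change of -1.56 (SE 0.35, adjusted p = 0.00546, edgeR), with 1.69, 1.40 and 1.90 CPM in Normal and 0.406, 0.763 and 0.502 CPM in Yap-activated libraries. Nrarp, a feedback inhibitor that Notch induces, was at 1.22, 1.57 and 0.759 CPM in Normal and 0.677, 0.835 and 0.390 CPM in Yap-activated libraries, which overlapped (log2 fold change -0.91, adjusted p = 0.0943, edgeR). Hes6, which opposes Hes1, rose by 0.44, a call that ended when Normal replicate 3 was left out (adjusted p = 0.0537). Hes5 had 1 count over all 6 libraries, too few to test.

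Of the sugar-adding enzymes, Lfng, which modifies receptors and changes how they answer Delta-like and Jagged ligands, rose from 7.92, 8.24 and 7.14 CPM in Normal to 21.1, 16.2 and 21.6 CPM in Yap-activated libraries. This was a log2 fold change of 1.34 (SE 0.16, adjusted p = 2.353e-04, edgeR). Rfng, a related fringe enzyme, was lower by TMM (log2 fold change -0.38) but at 0.11 with library totals alone, and leaving out Normal replicate 2 ended its call (adjusted p = 0.0784). Poglut1, which adds glucose to the receptors, was at 0.28 (adjusted p = 0.0411), a call lost without any one of Normal replicates 1 to 3 or Yap-activated replicates 1 and 2 (adjusted p from 0.0812 to 0.122).

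Of 9 genes of receptor cleavage 5 fell and 1 rose, against 29.7% and 29.8% of all genes. Furin, a protease that cuts many precursor proteins including Notch receptors on their way to the surface, fell from 1332, 2050 and 2129 CPM to 191, 163 and 174 CPM, by 3.38 on the log2 scale (SE 0.22, adjusted p = 1.162e-05, edgeR). Adam10, the protease that cuts a ligand-bound receptor, had 200.6, 255.8 and 256.5 CPM in Normal and 236.8, 451.7 and 448.1 CPM in Yap-activated libraries. The groups overlapped, and its call (log2 fold change 0.67, adjusted p = 0.0494, edgeR) was lost on leaving out any library but Yap-activated replicate 1 (adjusted p from 0.0947 to 0.157), with no filter (0.0574) and with limma voom (0.0813). Of the gamma-secretase genes Aph1c was at -1.46, a call that ended without Normal replicate 3 (adjusted p = 0.0649) or Yap-activated replicate 1 (adjusted p = 0.0504) and with library totals alone (adjusted p = 0.0787). Aph1b and Aph1c are near-identical copies, so how reads were divided between them is uncertain. Psen2, a catalytic subunit named here after its values were seen, fell by 1.43 on the log2 scale (SE 0.13).

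In the nuclear complex Rbpj, the DNA-binding protein on which Notch output depends, had 21.0, 21.6 and 23.5 CPM in Normal and 18.7, 22.9 and 24.3 CPM in Yap-activated libraries. Its log2 fold change was 0.00 by TMM (95% interval from -0.30 to 0.30, adjusted p = 0.993, edgeR) and 0.49 with library totals alone (adjusted p = 0.0183). Maml2, a Mastermind coactivator, rose by 1.97 (SE 0.16) and Maml3, another, fell by 1.001 on the log2 scale (SE 0.15). Rbpjl, a paralog of Rbpj known from enzyme-secreting acinar cells of the pancreas, fell from 19.3, 22.0 and 15.2 CPM to 0.542, 0.572 and 0.483 CPM, a log2 fold change of -5.14 (SE 0.22, adjusted p = 2.229e-06, edgeR). All 3 tested markers of chief cells, the enzyme-secreting cells of the corpus, fell too, from a sum of 87890 to 137600 CPM to one of 152.1 to 185.8 CPM, and their part in the fall of Rbpjl was not tested.

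Of 12 genes of ubiquitin ligases and receptor or ligand trafficking 2 fell and 10 did not pass, where 59.5% of all genes were called and 29.7% fell. Neurl1b, a ubiquitin ligase of the Neuralized family, which acts on ligands, fell from 34.6, 31.3 and 43.1 CPM to 4.57, 5.96 and 3.57 CPM, by 2.95 on the log2 scale (SE 0.22, adjusted p = 2.343e-05, edgeR). Dtx4, a Deltex ligase, fell by 0.67 (adjusted p = 0.0053, edgeR) and was at -0.17 with library totals alone (adjusted p = 0.374). Mib1, the main ligase for ligand uptake, was at 0.10 and did not pass.

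**Figure D5:**
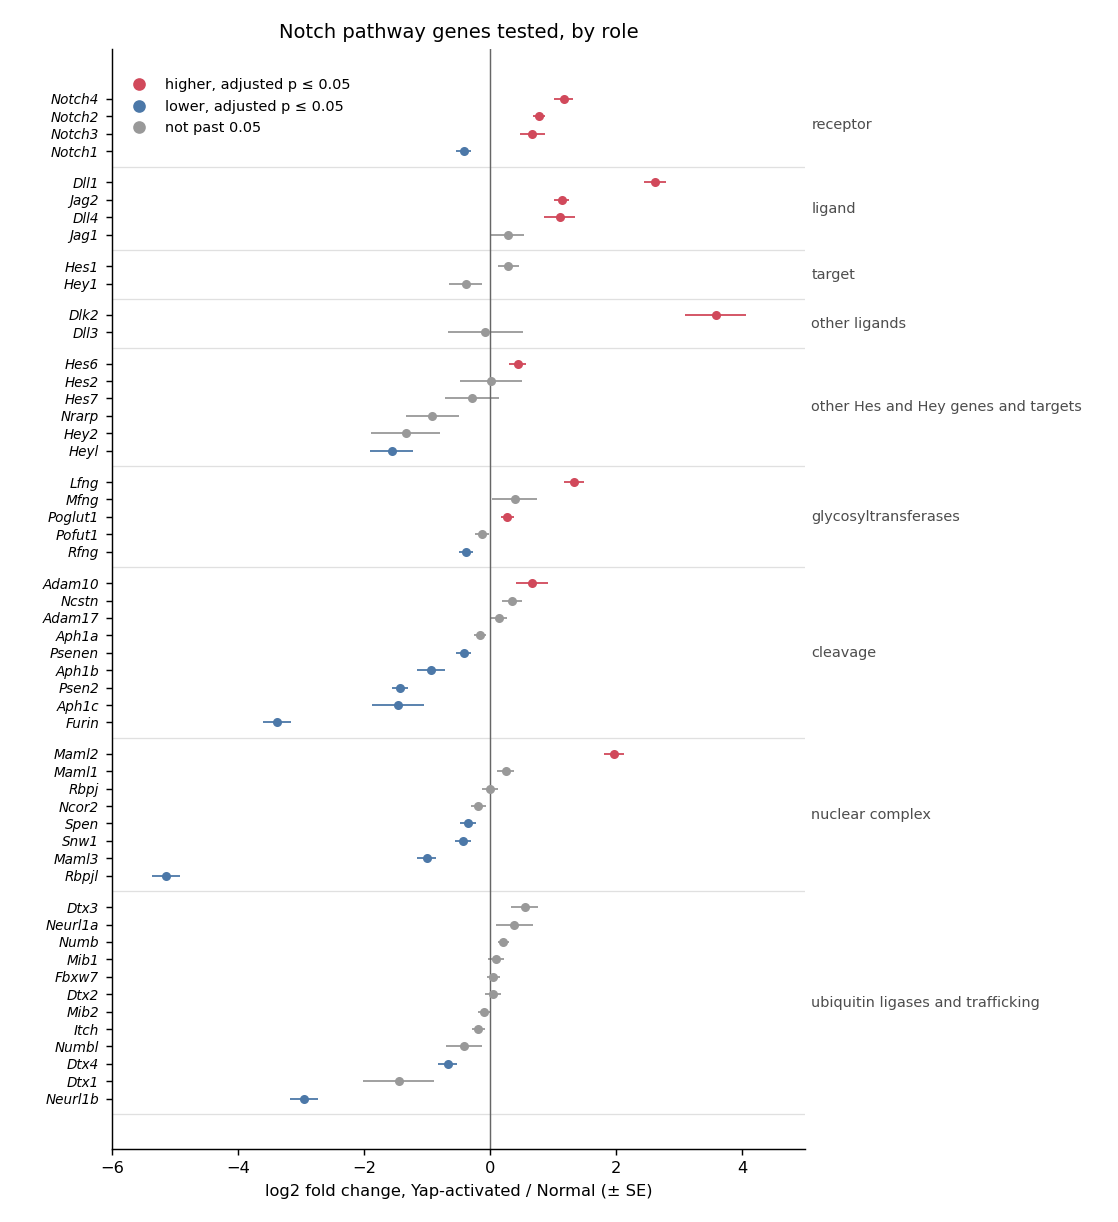
Log2 fold change of Yap-activated against Normal (± SE) for the 10 Notch genes and the 42 other pathway genes tested, grouped by role, under TMM scaling. Points past the threshold are red (higher) or blue (lower); the widest spread is from Rbpjl at -5.14 to Dlk2 at 3.58, and Notch1 and Rfng, blue here, are at 0.08 and 0.11 with library totals alone.

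Dll1, the gene of the 10 with the smallest p, was compared with 9436 genes of at least 10 CPM over the 6 libraries. The 5 genes most like it by Pearson's r of log2 CPM were Fbxw17, Zfp626, Pak6, Agfg1 and Pxdc1, with r from 0.9985 to 0.9996. Since the 6 libraries fall in 2 groups that differ at most genes, 1239 genes had an r over 0.95, and this likeness is a description only.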

How the data were processed

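Poly(A) RNA of 6 libraries was sequenced as paired reads. The authors deposited raw counts of reads for each gene symbol in a single table. Per the submitters' processing notes, the tools were STAR 2.4.2a and DESeq2, with GRCm38 and mm10 as builds. The counting program and its strand setting and annotation were not given in the sources used here. Genes passing filterByExpr (minimum count 10) were scaled by TMM and tested with edgeR 4.0.16 (robust quasi-likelihood F-test, R 4.3.3) over all 6 libraries, with Benjamini-Hochberg adjustment over all 14600 genes and a threshold of 0.05. The SE is the log2 fold change over the root of its F, and 95% intervals use the fit's degrees of freedom. Exon lengths and positions are from GENCODE release M21 on GRCm38, which held 21523 of the 21526 symbols. Ratios to markers used log2 CPM with a prior count of 2 for the gene, and the log2 of the summed CPM of the markers without a prior count. The edgeR, limma voom and DESeq2 fits were also run on simulated counts, where far fewer genes changed than here and rises equalled falls. That simulation did not probe the effect of scaling on these libraries.

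The genes and lists were chosen with earlier results of these data known. Named pathway genes are the 2 largest rises and 2 largest falls in each role that passed and reached 5 CPM on average in the higher group, with Rbpj, Nrarp, Hes5, Heyl and Lfng, and a few others as examples. A further gene of the pathway lists is not reported here. Lists of markers of other cell types (fibroblast, mucous neck, pit, enteroendocrine, neuronal and glial) gave 3 of 6, 1 of 2, 4 of 4, 3 of 4 and 3 of 3 tested genes lower and 0, 0, 0, 1 and 0 higher, against 29.7% lower and 29.8% higher of all genes tested. Alternatives were other scalings and filters, DESeq2 1.42.0, limma 3.58.1 voom, non-robust dispersions, a replicate block, other lengths and marker summaries, and leaving out each library.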

Additional observations from a re-analysis of the deposited data

How the results depend on the processing

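Scaled by library totals alone, 7522 genes were higher and 2299 lower, 0 of the 10 Notch genes were lower, and of the other pathway genes 19 were higher and 6 lower. On that scale Notch1, Hey1, Rbpj and Rfng turned to 0.082, 0.11, 0.49 and 0.11 log2. Rbpj, near 0, also turned with DESeq2 size factors (0.0094), upper quartile (0.049), a filter of 1 CPM in 3 libraries (0.0055), DESeq2 (0.011), voom (0.012) and without Normal replicate 3 (0.041) or Yap-activated replicate 1 (0.11). Jag1 turned to -0.10 without Yap-activated replicate 2. The cause was not tested.

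The log2 fold change of Rbpj ran from -0.072 to 0.11 on leaving out each library. Leaving out each library in turn gave 5 to 6 Notch genes higher and 0 to 1 lower, 3530 to 4304 genes higher and 3674 to 4273 lower, and 3 to 6 other pathway genes higher and 10 to 13 lower. The change in the share of Notch3 ran from -1.37 to 1.41 points in these fits, without a direction (-0.58 without Normal replicate 2 and -1.37 without Yap-activated replicate 3). Notch2, Notch4, Jag2, Dll1 and Dll4 kept their direction and passed in all 15 alternatives. Replicate numbers did not pair the samples (correlations of same-numbered deviations 0.04, 0.0027 and 0.069, and replicate 2 of Normal did not match its own number best). With a replicate block Hes1 passed (0.29, adjusted p = 0.0296, edgeR), Poglut1 was lost, and the calls over all genes went from 8682 to 8561.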
